A study of Rattus norvegicus with 82 samples.

Results

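Endothelial genes were followed in RNA of cardiomyocytes prepared from rat hearts, with the right (RV) and left (LV) ventricles kept apart. The genes were chosen by symbol from a list of 34 that mark the cells lining blood vessels. The count table of 17337 genes held 32 of them under these symbols, and *Mmrn2* and *Ptprb* were not found in it. Of the 32, *Robo4*, a receptor of endothelial cells, had at most 5 counts in a library and none in 35 of the 82 libraries, and did not pass the filter on low counts. The other 31 were among the 11954 genes tested.

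The animals were F1 offspring of female Wistar Kyoto and male Lewis rats of both sexes. Banding of the pulmonary artery (PAB) raises the load on the RV and banding of the aorta (AOB) that on the LV, each with a clip that did not narrow the vessel at first, and sham animals were operated on without banding. Tissue was taken at a compensated, hypertrophic stage (H) or at a decompensated, failing stage (F). Both ventricles of 41 animals were sequenced. The sham groups held 7 (Sham-H) and 9 (Sham-F) of them, the PAB groups 6 each (PAB-H and PAB-F), and the AOB groups 6 (AOB-H) and 7 (AOB-F). Males numbered 3 in Sham-H, 2 in AOB-H and 4 in each of the other groups. The labels give an age of 11 weeks for the H groups, 28 weeks for PAB-F and 31 weeks for Sham-F and AOB-F, with 7, 22 and 26 weeks since surgery. The PAB-F animals were therefore younger than the sham animals they are compared with, and banding and this age gap cannot be told apart. The ages in the article differ from the labels by some weeks, and another label calls the animals 6-month-old weanlings at surgery.

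Endothelial cells form the inner layer of vessels and of the heart chambers, and capillary endothelium lies next to nearly every cardiomyocyte. They keep the vessel wall tight through junction proteins, read growth factors through receptor tyrosine kinases of the VEGF and TIE families, and hold their identity through transcription factors of the ETS and SOX families. Most genes of the list are not thought to be made in quantity by cardiomyocytes. Hearts were digested by perfusion with collagenase, and the cardiomyocytes were spun down at low speed, a step meant to leave endothelial cells and fibroblasts in the supernatant. In RNA pooled from all cells of a preparation, fewer endothelial cells and less endothelial RNA per cell cannot be told apart.

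The libraries held between 6675287 and 19665439 counts on genes. Against the labelled cell type, 9 cardiomyocyte markers, among them *Myh6* and *Tnnt2*, took 6.07 to 14.3% of all counts in a library and were all present. The LV libraries of 5 animals lay far from the rest of their group on the first principal component, computed without the endothelial genes. These were Sham-H replicates 4 and 5, PAB-H replicate 2, AOB-H replicate 6 and PAB-F replicate 5, and where leaving them out moved a count or a median of the endothelial genes by over 1.5 times, or turned it, the value without them is given. As a whole the LV libraries of the older animals differed most: 77.2% of all genes tested passed an adjusted p of 0.05 between RV and LV in Sham-F. In the comparison of the sham LVs of the 2 ages it was 57.4%, and in the sham RVs 0.0502%.

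Levels of different genes were compared as FPKM, which divides counts by gene length and depth. Mean FPKM over the 82 libraries was highest for *Egfl7* at 148, followed by *Eng* at 93.6, *Pecam1* at 64, *Vwf* at 61, *Tie1* at 57.6, *Cdh5* at 54.5 and *Kdr* at 54.4. The SDs of these 7 genes over libraries ranged from 19.4 to 112, and neighbours among the last 5 differed by less than that spread. The lowest tested genes were *Plvap* at 2.93 and *Tal1* at 4.86. For scale, *Myh6* had a mean FPKM of 6734 and *Atp2a2*, the sarcoplasmic reticulum calcium pump, of 3775.

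Sequences that precede some of these genes were searched for short motifs. For 17 of the 32 genes a stretch from 250 bases before to 50 bases after the start of the gene was found in RefSeq for the rat assembly GRCr8, which is not the assembly used for counting. Motifs were searched on both strands. A core motif of ETS factors, AGGAAG, occurred in 12 of these 17 stretches (70.6%), against 34.3% of 27457 stretches of the same length over all genes. The shorter SOX core ACAAT occurred in 5 of 17 (29.4%) against 33.1%, and the GATA core AGATAA in 2 of 17 (11.8%) against 11.3%. Another ETS site, CCGGAAG, occurred in 0 of 17 against 9.22%. The compound FOX and ETS motif AACAGGAA was found in *Emcn* and *Ushbp1* (11.8% against 2.5%), where it overlaps the first ETS core. Matches of letters do not show binding. The stretches below are shown for genes that the results describe in detail, and no test relates the letters to the counts. In the sham groups *Tie1* and *Nos3* differed strongly between the ventricles and *Kdr* differed little. *Ushbp1* holds the compound motif at 2 places, and *Emcn* moved against the others in Sham-F. Capitals mark these motifs on either strand, and each line runs 5′ to 3′ along the gene.
Tie1, chr5:137304932-137305231, minus strand: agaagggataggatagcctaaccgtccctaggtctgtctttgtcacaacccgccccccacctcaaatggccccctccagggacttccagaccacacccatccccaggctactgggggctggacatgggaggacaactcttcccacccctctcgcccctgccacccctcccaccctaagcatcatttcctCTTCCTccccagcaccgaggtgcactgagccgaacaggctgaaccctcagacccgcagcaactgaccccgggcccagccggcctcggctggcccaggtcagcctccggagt
Nos3, chr4:11706532-11706831, minus strand: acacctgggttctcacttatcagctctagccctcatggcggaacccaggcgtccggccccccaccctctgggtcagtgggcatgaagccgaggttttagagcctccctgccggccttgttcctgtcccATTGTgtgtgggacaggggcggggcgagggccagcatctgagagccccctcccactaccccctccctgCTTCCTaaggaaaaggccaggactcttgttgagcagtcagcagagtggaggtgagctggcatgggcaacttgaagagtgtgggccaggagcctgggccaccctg
Ushbp1, chr16:18101818-18102117, minus strand: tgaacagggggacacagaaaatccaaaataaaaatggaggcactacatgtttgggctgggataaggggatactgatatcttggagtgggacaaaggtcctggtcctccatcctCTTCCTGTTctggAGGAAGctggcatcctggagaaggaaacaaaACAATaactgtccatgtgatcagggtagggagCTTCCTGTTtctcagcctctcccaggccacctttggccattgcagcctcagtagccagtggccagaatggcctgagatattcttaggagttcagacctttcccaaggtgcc
Emcn, chr2:228564289-228564588, plus strand: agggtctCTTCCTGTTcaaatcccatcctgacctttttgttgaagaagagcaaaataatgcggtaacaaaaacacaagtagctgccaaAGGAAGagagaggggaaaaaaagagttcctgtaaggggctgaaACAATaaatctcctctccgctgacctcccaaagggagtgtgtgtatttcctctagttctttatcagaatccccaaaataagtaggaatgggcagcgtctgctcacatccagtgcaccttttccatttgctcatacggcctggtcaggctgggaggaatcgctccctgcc
Kdr, chr14:32571813-32572112, plus strand: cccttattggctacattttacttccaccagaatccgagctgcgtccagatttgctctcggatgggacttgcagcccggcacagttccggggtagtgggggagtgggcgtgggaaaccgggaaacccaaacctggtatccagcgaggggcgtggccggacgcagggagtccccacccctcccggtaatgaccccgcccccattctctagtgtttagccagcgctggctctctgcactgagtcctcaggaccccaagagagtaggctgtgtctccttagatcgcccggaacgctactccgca

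Together the 32 genes took between 0.127 and 1.09% of the counts in a library, and they took less in the RV than in the LV of the same animal in 41 of 41 animals. In Sham-H the share was 0.154 to 0.201% in the RV (median 0.169%) and 0.23 to 0.653% in the LV (median 0.337%). In Sham-F it was 0.127 to 0.223% in the RV (median 0.175%) and 0.445 to 0.815% in the LV (median 0.739%). The 2 ventricles did not overlap in either sham group, and the RV shares of the 2 ages had like medians, with 3 of 9 older RVs above and 3 below all 7 younger ones, while 5 of 9 older LVs lay above all 7 younger ones. Divided animal by animal, the LV share was 1.2 to 3.26 times the RV share in Sham-H (median 1.91) and 2.99 to 5.74 times in Sham-F (median 3.76).

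**Figure D1:**
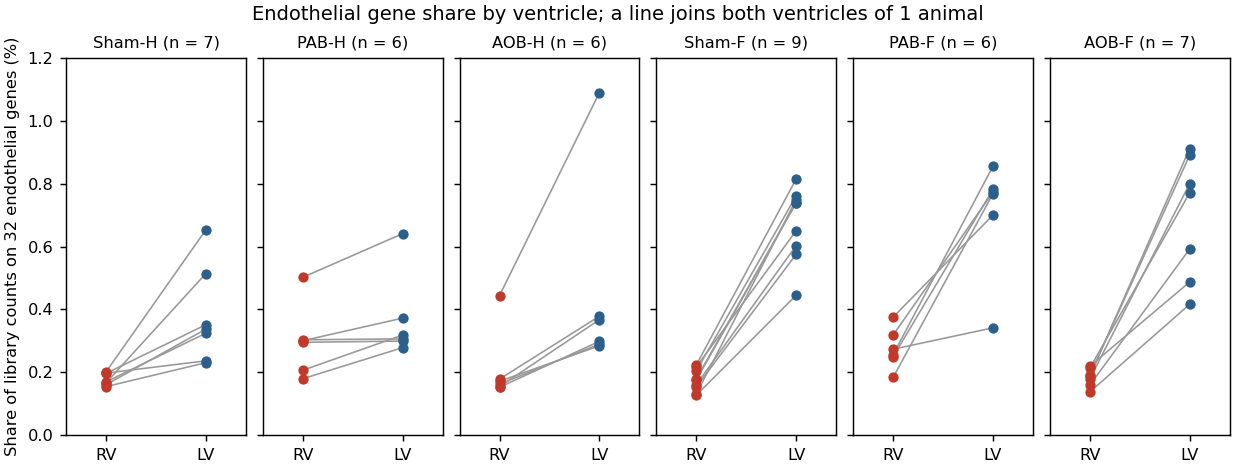
Share of the counts of a library on the 32 endothelial genes (%, y axis) in the RV (red) and LV (blue), with 1 line per animal and 1 panel per condition. Every line rises from RV to LV, the lines of PAB-H are the flattest with a median ratio of 1.26, and those of Sham-F are among the steepest with a median of 3.76.

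The median size of this gap varied between the banded groups. In each of them the ratios overlapped those of the matching sham animals, with 1.01 to 1.56 in PAB-H against 1.2 to 3.26 in Sham-H. The change of the gap is tested gene by gene below. In PAB-H the RV share ran from 0.179 to 0.502% (median 0.298%) and the LV share from 0.278 to 0.641% (median 0.312%), so that the ventricles overlapped and the LV held only 1.01 to 1.56 times the RV share (median 1.26). In PAB-F the RV share was 0.183 to 0.375% (median 0.265%) and the LV share 0.341 to 0.855% (median 0.77%), with a median ratio of 2.79. In the AOB groups the ratios were near those of the sham animals, with a median of 2.04 in AOB-H and 3.73 in AOB-F. The RV shares there were 0.152 to 0.444% and 0.137 to 0.219%, and the LV shares 0.284 to 1.09% and 0.416 to 0.912%. The highest RV and LV shares of AOB-H both came from replicate 6 and those of PAB-H both from replicate 2, which are among the 5 animals that stood apart.

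Gene by gene, RV was compared with LV by a fit of edgeR that holds the mean of each animal fixed, and a gene is called where its p, adjusted over all 11954 genes by Benjamini and Hochberg, is under 0.05. In Sham-H, 29 of the 31 genes were called and all 29 were lower in the RV, against 14.8% of all genes tested. At least a 2-fold difference was found for 16 of them, against 3.16% of all genes, and the median log2 fold change of the 31 was -1.09, against -0.01 over all genes. In Sham-F, 28 genes were lower and 1, *Emcn*, was higher in the RV, against 40 and 37.3% of all genes, and the median was -2.05, against -0.05. There the difference was at least 2-fold for 27 genes, all lower, against 16.6% of all genes. Since 77.2% of all genes were called in Sham-F in either direction, the count there is given together with the medians. No library of the RV reached any library of the LV for 20 of 31 genes in Sham-H and 22 of 31 in Sham-F, against 2.99 and 19.4% of all genes.

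**Figure D2:**
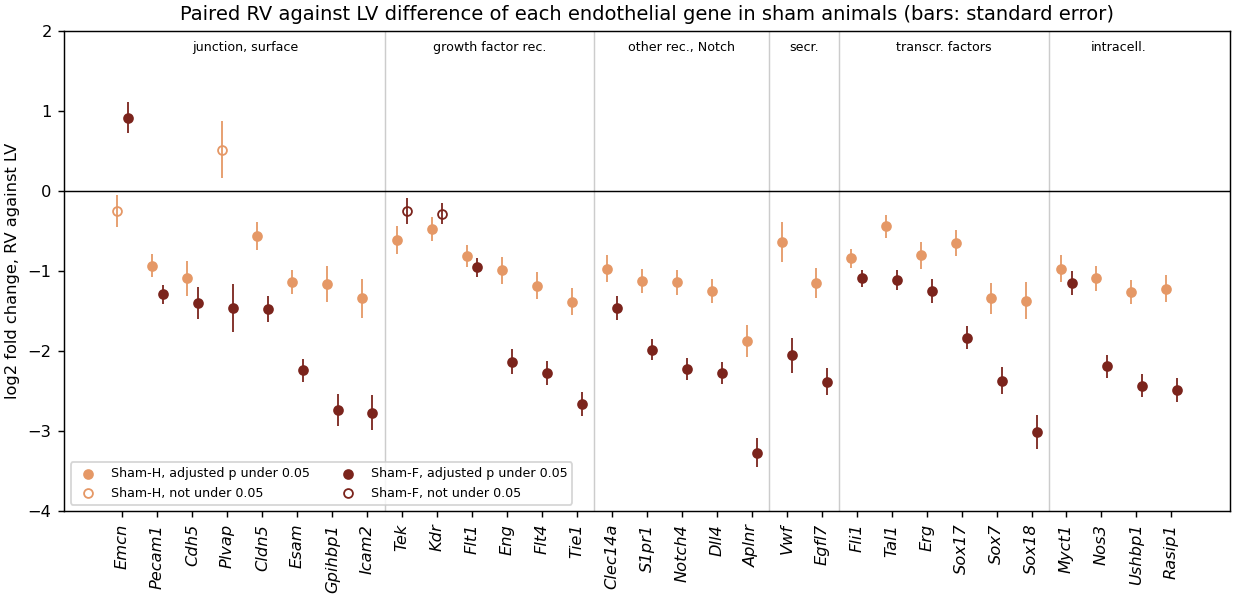
The log2 fold change of RV against LV (y axis, negative where the RV is lower) with its standard error for each of the 31 tested genes in Sham-H (orange) and Sham-F (dark red), grouped by role. Filled points have an adjusted p under 0.05, and all but *Emcn* in Sham-F and *Plvap* in Sham-H lie below 0.

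Of the growth factor receptors, *Tie1*, an orphan receptor that works with the angiopoietin receptor, showed the widest gap. Its normalized count, scaled to a library of mean size, was 924 to 1325 in the RV (median 1089) and 1734 to 6267 in the LV (median 2780) of Sham-H. In Sham-F the RV libraries held 730 to 1226 (median 951) and the LV libraries 4272 to 8107 (median 6559). The ventricles did not overlap at either age, and the RV was 2.6-fold lower in Sham-H (log2 -1.38, SE 0.17, adjusted p = 6.09e-08) and 6.31-fold lower in Sham-F (-2.66, SE 0.15, adjusted p = 3.82e-18). *Eng*, a TGF-beta co-receptor, and *Flt4*, the receptor for VEGF-C, followed with -0.99 and -1.18 in Sham-H and -2.13 and -2.27 in Sham-F, all called.

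The VEGF receptor *Kdr* and the angiopoietin receptor *Tek* differed little in the sham groups. Both were called lower in the RV of AOB-H and AOB-F, *Kdr* by -0.73 and -0.65 and *Tek* by -1.06 and -0.96. Neither was called between the ventricles of PAB-H or PAB-F. In Sham-H *Kdr* counts were 2584 to 3721 in the RV (median 3484) and 3621 to 5706 in the LV (median 4667), which overlapped slightly, and the RV was lower in 7 of 7 animals (log2 -0.47, SE 0.15, adjusted p = 0.0167). That call is lost without Sham-H replicate 3 or 4, and without the 5 animals that stood apart. In Sham-F the RV range of 2684 to 3841 (median 3289) lay inside the LV range of 2596 to 8564 (median 3557), and the difference of -0.28 (SE 0.13) had an adjusted p of 0.0595. It passes with total counts, a length correction, no replicate block (no term for the animal) or without Sham-F replicate 8. *Tek* differed by -0.61 (SE 0.18, adjusted p = 0.00991) in Sham-H, with 701 to 976 in the RV (median 797) and 1011 to 1719 in the LV (median 1133), and the ventricles did not overlap. In Sham-F its counts of 686 to 1044 in the RV (median 851) and 670 to 3206 in the LV (median 841) overlapped fully, with a log2 difference of -0.25 (SE 0.16, adjusted p = 0.154). The third VEGF receptor of the list, *Flt1*, differed by -0.81 in Sham-H and -0.95 in Sham-F, both called. All 6 receptors of this group were called lower in Sham-H and 4 of 6 in Sham-F, against 14.8 and 40% of all genes. In either direction 77.2% of all genes were called in Sham-F.

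The receptors of apelin, sphingosine phosphate and matrix ligands and the Notch genes were all called lower at both ages. Of all genes 14.8% were called lower in Sham-H and 40% in Sham-F. *Aplnr*, the apelin receptor, had the largest fold difference of the 31 genes in both sham groups. Its counts were 368 to 728 in the RV (median 582) and 1011 to 4938 in the LV (median 1993) of Sham-H, and 253 to 551 (median 436) and 2041 to 5679 (median 4390) in Sham-F. The ventricles were fully apart, and the RV was 3.65-fold lower in Sham-H (log2 -1.87, SE 0.20, adjusted p = 8.58e-09) and 9.62-fold lower in Sham-F (-3.27, SE 0.18, adjusted p = 3.82e-18). *Dll4*, a Notch ligand of arterial and tip cells, and *Notch4*, an endothelial Notch receptor, differed by -1.25 and -1.14 in Sham-H and by -2.27 and -2.22 in Sham-F. *S1pr1*, the sphingosine 1-phosphate receptor, and *Clec14a*, a surface lectin, differed by -1.12 and -0.97, and by -1.98 and -1.46, in the same order.

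Junction and surface proteins were mixed. *Pecam1*, an adhesion molecule of endothelial contacts, had 802 to 1138 normalized counts in the RV (median 975) and 1283 to 2567 in the LV (median 1800) of Sham-H, and 724 to 1169 (median 863) and 1357 to 4793 (median 2140) in Sham-F. No RV library reached an LV library at either age, with log2 differences of -0.93 (SE 0.14, adjusted p = 2e-06) and -1.29 (SE 0.12, adjusted p = 2.19e-12), and RV was lower in 41 of 41 animals of the series. *Cdh5*, the cadherin of endothelial junctions, ran from 900 to 1143 in the RV (median 967) and 1366 to 3435 in the LV (median 2144) of Sham-H, and from 627 to 1211 (median 838) and 979 to 6874 (median 2293) in Sham-F. Its groups were apart in Sham-H and overlapped in Sham-F, with differences of -1.09 (SE 0.22, adjusted p = 0.000241) and -1.40 (SE 0.20, adjusted p = 2.32e-08). The tight junction gene *Cldn5* overlapped in Sham-H (422 to 651 in the RV, median 535, and 509 to 1751 in the LV, median 598) and was separate in Sham-F (280 to 712, median 462, and 728 to 2075, median 1284). It differed by -0.56 (SE 0.18, adjusted p = 0.0177) and -1.47 (SE 0.16, adjusted p = 1.04e-10), and the first call is lost without Sham-H replicate 4 or 5, without the 5 animals, or with no replicate block.

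*Icam2*, an adhesion molecule for leukocytes, and *Gpihbp1*, which carries lipoprotein lipase to the capillary lumen, stood among the widest gaps. *Icam2* counts were 118 to 238 in the RV (median 167) and 236 to 1028 in the LV (median 387) of Sham-H, touching at the ends, and 116 to 268 (median 166) against 782 to 1420 (median 1177) in Sham-F. The log2 differences were -1.34 (SE 0.24, adjusted p = 7.83e-05) and -2.77 (SE 0.22, adjusted p = 1.87e-14). *Gpihbp1* differed by -1.16 and -2.73, and *Esam*, a junctional immunoglobulin protein, by -1.13 and -2.24, each called at both ages.

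*Emcn*, a sialomucin of capillary and venous endothelium, was the exception. In Sham-H its counts of 222 to 349 in the RV (median 299) lay within the LV range of 158 to 629 (median 343), with a difference of -0.25 (SE 0.20, adjusted p = 0.347). In Sham-F the RV libraries held 145 to 361 (median 250) and the LV libraries 92.1 to 320 (median 114), and the RV was higher in 9 of 9 animals, by 0.92 (SE 0.19, adjusted p = 2.58e-05). The ranges overlapped although every animal had the same order. In PAB-F the RV was higher in 6 of 6 animals, with 234 to 546 (median 364) against 108 to 285 (median 164) in the LV and a log2 difference of 1.16 (SE 0.22, adjusted p = 2.04e-05). In AOB-H, by contrast, the difference was -1.06 (SE 0.22, adjusted p = 0.000435), with the RV lower in 6 of 6 animals.

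*Plvap*, which forms the diaphragms of fenestrae and caveolae, was the least abundant of the 31 tested genes, and its values had opposite signs at the 2 ages, the first not called. Counts in Sham-H were 29.7 to 121 in the RV (median 59.1) and 20.1 to 188 in the LV (median 37.4), and the log2 difference of 0.52 (SE 0.36) had an adjusted p of 0.263. In Sham-F the RV held 21.8 to 77.4 (median 44.5) and the LV 65.7 to 181 (median 122), with the RV lower in 9 of 9 animals and a difference of -1.46 (SE 0.30, adjusted p = 3.05e-05). The ventricles overlapped at both ages.

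Of the secreted proteins, *Vwf*, the carrier of clotting factor VIII that endothelial cells store, had 2543 to 6605 counts in the RV (median 3238) and 2920 to 12696 in the LV (median 4696) of Sham-H. In Sham-F the RV range was 2550 to 4618 (median 3021) and the LV range 8494 to 18336 (median 13664). The ventricles overlapped in the younger animals and were apart in the older ones, with differences of -0.64 (SE 0.25, adjusted p = 0.0407) and -2.05 (SE 0.22, adjusted p = 3.61e-11). The first call is lost without any 1 of Sham-H replicates 3, 4, 5 and 6, without the 5 animals, or with no replicate block. *Egfl7*, a matrix protein that endothelial cells secrete, differed by -1.15 (SE 0.19, adjusted p = 1.44e-05) and -2.38.

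All 6 transcription factors were called as lower in the RV at both ages. The ETS factor *Erg* had 130 to 218 normalized counts in the RV (median 167) and 221 to 396 in the LV (median 269) of Sham-H, and 73.6 to 206 (median 170) and 183 to 818 (median 362) in Sham-F. The ventricles were apart in Sham-H and overlapped in Sham-F, with differences of -0.80 (SE 0.17, adjusted p = 0.000397) and -1.25 (SE 0.15, adjusted p = 5.83e-10). Among the SOX factors of vascular identity, *Sox18* showed the widest gap, with 112 to 226 in the RV (median 151) against 159 to 837 in the LV (median 423) of Sham-H, and 114 to 251 (median 218) against 983 to 2103 (median 1671) in Sham-F. It differed by -1.37 (SE 0.23, adjusted p = 2.27e-05) with overlap and by -3.01 (SE 0.21, adjusted p = 3.74e-16) without. *Sox7* and *Sox17* differed by -1.34 and -0.65 in Sham-H and by -2.37 and -1.83 in Sham-F. The ETS factor *Fli1* differed by -0.84 and -1.09. *Tal1*, a basic helix-loop-helix factor of blood and endothelium, differed by -0.44 (adjusted p = 0.0149) and -1.11, the first lost without Sham-H replicate 4 or 5, without the 5 animals or with no replicate block.

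Within the cell, *Nos3*, the endothelial nitric oxide synthase, had 895 to 1194 counts in the RV (median 1063) and 1408 to 4402 in the LV (median 2004) of Sham-H, and 774 to 1452 (median 1132) and 3584 to 6037 (median 5109) in Sham-F. No overlap occurred at either age, and the RV was 2.13-fold lower (log2 -1.09, SE 0.16, adjusted p = 2.24e-06) and 4.56-fold lower (-2.19, SE 0.14, adjusted p = 1.27e-16). *Rasip1*, a RAS-interacting protein of vessel lumen formation, differed by -1.22 and -2.48, and *Ushbp1* by -1.26 and -2.43. *Myct1*, a membrane protein of endothelial cells, differed by -0.97 and -1.15. All 4 were called at both ages.

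**Figure D3:**
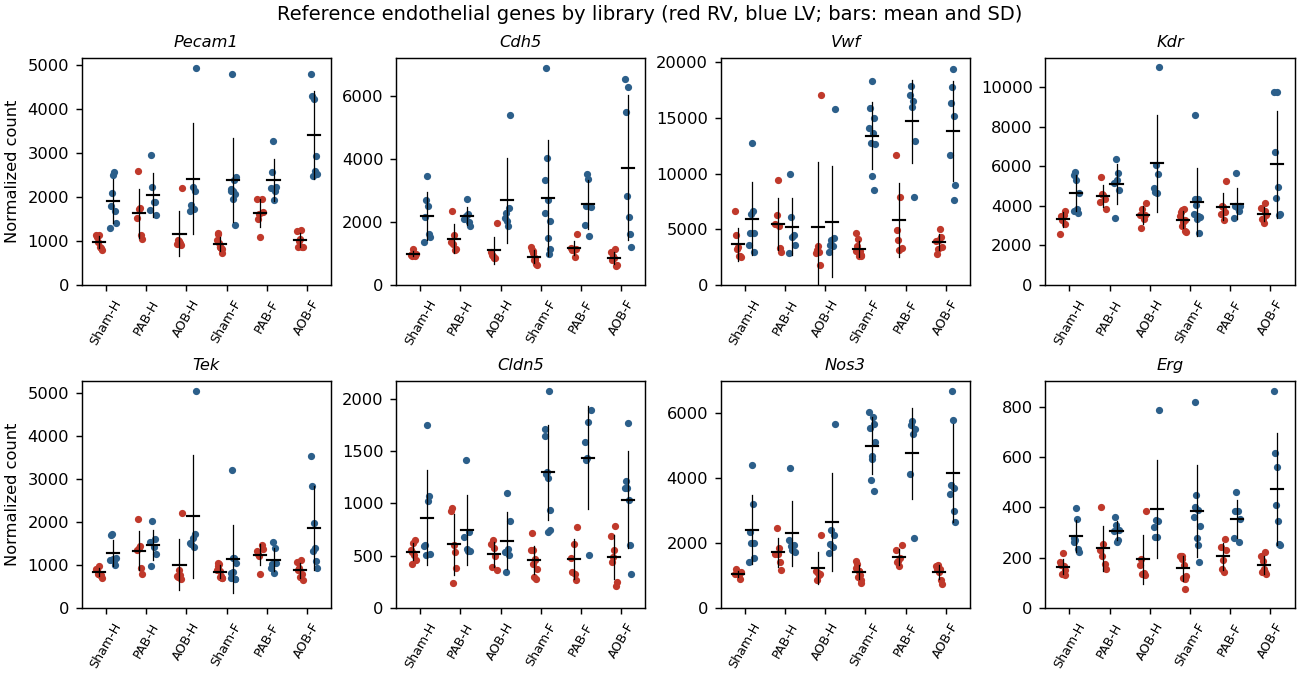
Normalized counts (y axis, from 0) of 8 reference endothelial genes in every library, by condition, with the RV in red and the LV in blue. Black lines give the mean and the SD, with SD bars ending at 0 where they would go below it. The means of *Nos3* and *Vwf* are highest in the LV of the F groups, while *Kdr* and *Tek* overlap between the ventricles in Sham-F.

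Across the 41 animals, 12 of the 31 genes were lower in the RV than in the LV of every animal, against 1.67% of all genes tested, and 23 were lower in at least 38 animals, against 7.35%. Only *Emcn* (18 animals) and *Plvap* (21 animals) were lower in fewer than 30. The same comparison was made within each banded group. In AOB-H 27 genes were called and all were lower in the RV, against 9.29% of all genes, with a median of -1.06. In AOB-F it was 30 genes, all lower, against 36% of all genes, with a median of -1.87, and in PAB-F 27 lower and 1 (*Emcn*) higher, against 32.2 and 34.1%, with a median of -1.48. PAB-H stood apart with 3 genes lower, *Aplnr* at -0.99 (SE 0.21, adjusted p = 0.0091), *Gpihbp1* at -0.92 and *Ushbp1* at -0.66, against 0.535% of all genes, and a median of -0.39 over the 31. The count in PAB-H is 1 without PAB-H replicate 3 or 5, 1 with total counts and 0 with no replicate block. At least 2-fold differences numbered 23 in AOB-H, 21 lower and 1 higher in PAB-F and 27 in AOB-F, against 3.71, 8.61 and 14.6% of all genes for lower values and 12.2% for higher values in PAB-F. Without AOB-H replicate 6 the genes called at 2-fold numbered 15 in AOB-H, and without the 5 animals they numbered 15 in AOB-H and 5 rather than 16 in Sham-H. Every RV library lay under every LV library for 0 genes in PAB-H, 7 in AOB-H, 13 in PAB-F and 24 in AOB-F, against 0.351, 1.91, 9.29 and 12.9% of all genes.

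Whether the gap between the ventricles differed between sham animals of the 2 ages was tested as a difference of differences. The log2 value of RV against LV was lower in Sham-F for 21 genes and higher for 1, *Emcn*, against 24.7 and 25.1% of all genes. The median change was -1.08, against -0.02. Lower values meant a wider gap except for *Plvap*, which went from 0.52, not called, to -1.46. At least a 2-fold change was found for 18 lower genes and 1 higher, against 6.45 and 4.41%. Among the called genes, *Plvap* changed by -1.98 (SE 0.47, adjusted p = 0.00102), *Sox18* by -1.64 (SE 0.30, adjusted p = 0.000127) and *Gpihbp1* by -1.57 (SE 0.29, adjusted p = 0.000138), and *Emcn* by 1.17 (SE 0.28, adjusted p = 0.00104). *Vwf*, *Nos3* and *Cldn5* changed by -1.41, -1.10 and -0.92, all called. For *Clec14a*, *Fli1*, *Cdh5*, *Pecam1*, *Erg*, *Flt1*, *Myct1*, *Kdr* and *Tek* no change was called, with values from -0.50 to 0.35.

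The age comparison within each ventricle gave the rest. The sham groups differ in weeks since surgery as well as in age. These, and any difference in day of isolation or processing, cannot be told apart from age, here or in the gap above. In the RV 0 of 31 genes differed between Sham-F and Sham-H by edgeR, none had an unadjusted p under 0.05, and the median was -0.07 (-0.01 without the 5 animals), against 0.0502% of all genes called, with the 2 lowest p for *Plvap* at -0.58 (SE 0.44) and *Sox18* at 0.32 (SE 0.27). In the LV 20 genes were higher and 1 lower in the older animals, against 27.8 and 29.6% of all genes, with a median of 0.93, against 0.03. The gains were led by *Sox18* at 1.84 (SE 0.27, adjusted p = 2.77e-07) and *Gpihbp1* at 1.31 (SE 0.25, adjusted p = 1.17e-05), while *Emcn* changed by -1.44 (SE 0.27, adjusted p = 8.32e-06). *Vwf* and *Nos3* were higher by 1.17 and 1.05, both called, and *Pecam1*, *Cdh5*, *Kdr*, *Tek*, *Cldn5* and *Erg* were not called, with values from -0.16 to 0.58. Of the 20, 14 were at least 2-fold higher, against 6.12% of all genes, a count of 15 with *Emcn* that drops to 7 without Sham-H replicate 1 or 7. In the same comparison 3 of 7 fibroblast, 5 of 8 macrophage and 4 of 7 mural cell markers were higher and 1 mural marker lower, and their part in the result was not tested.

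Banding was compared with sham within each ventricle. In the RV of PAB-H 6 of 31 genes were higher than in Sham-H, against 3.91% of all genes, and all 31 had a positive log2 fold change with a median of 0.64, against 0.00. *Notch4* rose from 772 to 927 counts (median 900) to 1056 to 3199 (median 1426) without overlap, by 0.93 (SE 0.25, adjusted p = 0.0212). *Flt4* went from 130 to 193 (median 180) to 184 to 580 (median 299), by 0.90 (SE 0.28, adjusted p = 0.0454), and *Myct1* from 108 to 283 (median 195) to 178 to 632 (median 323), by 0.83 (SE 0.25, adjusted p = 0.0409), both with overlap. *Flt1*, *Esam* and *Pecam1* were the other called genes. This count is not firm. Leaving out 1 animal moved it by over 1.5 times in 11 of 13 cases, with 0 without PAB-H replicate 2, 14 without PAB-H replicate 6, and 1 to 3 without any 1 of Sham-H replicates 1, 2, 3, 5, 6 and 7 and PAB-H replicates 1, 3 and 4. It was 0 without the 5 animals that stood apart, with a median of 0.47. With sex as a covariate it was 1, with a median of 0.58. Males made up 4 of 6 animals in PAB-H and 3 of 7 in Sham-H. The RV share of counts was 0.295 to 0.502% in the PAB-H males and 0.206 and 0.179% in the females, replicates 5 and 6. The part of sex was not tested beyond the covariate.

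In the RV of PAB-F 6 genes were higher than in Sham-F, against 7.66% of all genes, and all 31 values were again positive, with a median of 0.57, against 0.02. *Flt4* went from 101 to 221 counts (median 177) to 205 to 711 (median 310), by 1.09 (SE 0.26, adjusted p = 0.00348). *Myct1* went from 123 to 258 (median 167) to 190 to 428 (median 323), by 0.85 (SE 0.24, adjusted p = 0.012). *Pecam1* went from 724 to 1169 (median 863) to 1093 to 1951 (median 1632), by 0.80 (SE 0.20, adjusted p = 0.00554), and all 3 overlapped at the ends of their ranges. *Egfl7*, *Notch4* and *Fli1* were called too. The count was 2 without PAB-F replicate 1 and 16 without the 5 animals. By share of counts, 5 of 6 RV libraries of PAB-H lay above all 7 of Sham-H, and 5 of 6 of PAB-F above all 9 of Sham-F.

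No gene of the list was called in 5 of the other comparisons with sham, namely the LV of PAB-H and PAB-F, the RV of AOB-H and AOB-F and the LV of AOB-H. Of all genes 0% were called in both LVs of the PAB groups and in the RV of AOB-H, 0.0167% in the LV of AOB-H and 0.0669% in the RV of AOB-F. The medians of the list lay between -0.05 and 0.21. Without the 5 animals the median turned from 0.21 to -0.03 in the RV of AOB-H, from -0.05 to 0.12 in the LV of PAB-H and from -0.03 to 0.10 in the LV of PAB-F. An unadjusted p under 0.05 was found for 4 genes in the LV of AOB-H, with *Myct1* at 0.76 (SE 0.25, adjusted p = 0.109) and *Tek* at 0.74 (SE 0.28, adjusted p = 0.142), and for 0 in the other 4. The lowest p belonged to *Sox17* at -0.37 and *Aplnr* at -0.42 in the LV of PAB-H, *Eng* at 0.40 and *Sox18* at 0.45 in the RV of AOB-H, *Emcn* at 0.36 and *S1pr1* at -0.16 in the LV of PAB-F, and *Sox17* at 0.31 and *Flt4* at 0.23 in the RV of AOB-F. DESeq2 also called 0 of the list in these 5 comparisons. In the LV of AOB-F *Tek* and *Kdr* were higher than in Sham-F, by 0.71 (SE 0.25, adjusted p = 0.045) and 0.54 (SE 0.17, adjusted p = 0.0235), against 8.54% of all genes. The median of the list there was 0.04. *Kdr* counts were 3546 to 9731 (median 4959) against 2596 to 8564 (median 3557), a nearly complete overlap. This count is also not firm. It was 0 without any 1 of Sham-F replicates 7 and 8 and AOB-F replicate 1, 1 without any 1 of Sham-F replicates 1, 2, 4, 5, 6 and 9 and AOB-F replicate 2, 4 without AOB-F replicate 3 and 6 without Sham-F replicate 3. Without the 5 animals 5 genes were higher and 2 lower.

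**Figure D4:**
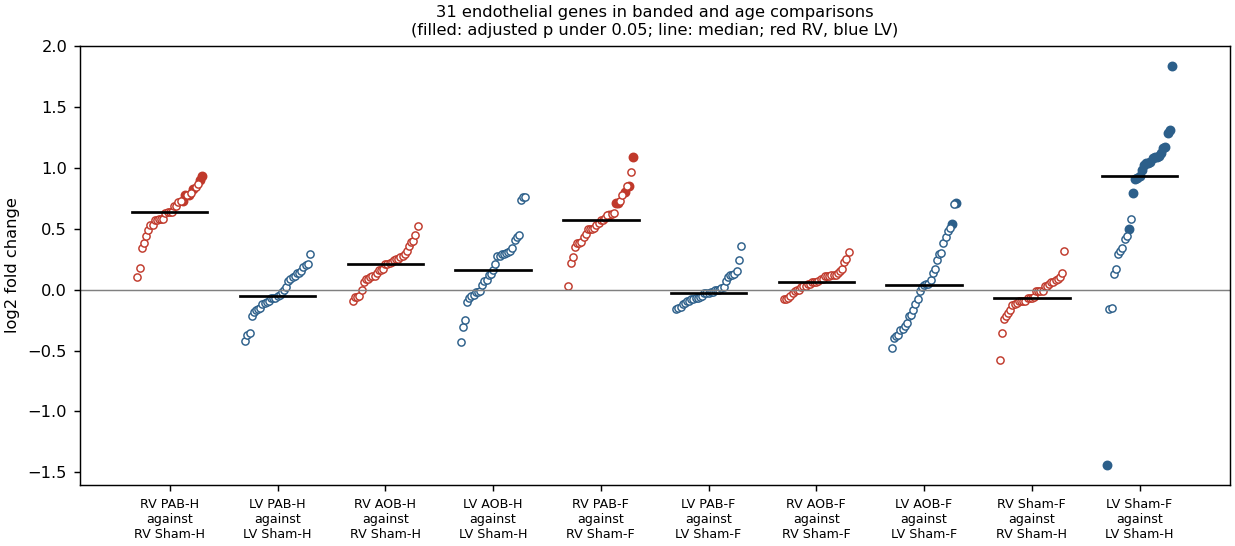
The log2 fold change of each of the 31 tested genes (y axis) in 10 comparisons with the matching sham group or between the sham ages, with the RV in red and the LV in blue, ordered by value within a comparison. Filled points have an adjusted p under 0.05 and the black line is the median, which is 0.64 and 0.57 for the RV of PAB-H and PAB-F, 0.93 for the older against the younger sham LV and between -0.07 and 0.21 for the others.

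The change of the gap between ventricles upon banding was tested directly. In PAB-F 6 genes had a smaller gap than in Sham-F, against 2.34% of all genes: *Aplnr* by 1.02 (SE 0.27, adjusted p = 0.0289), *Flt4* by 0.91 (SE 0.24, adjusted p = 0.0268), *Tie1* by 0.90 (SE 0.23, adjusted p = 0.0208), *Myct1* by 0.83, *Pecam1* by 0.73 and *Fli1* by 0.68. The median was 0.61, against 0.02, with *Cldn5* at -0.13 (SE 0.25) and *Kdr* at 0.23 (SE 0.21). The count was 0 without PAB-F replicate 1 or 5, 3 without Sham-F replicate 9, 10 without PAB-F replicate 3, 15 without PAB-F replicate 4, 2 without the 5 animals, where the median was 0.40, and 0 with no replicate block. In PAB-H 0 genes were called by edgeR, against 0.0418% of all genes, although 20 had an unadjusted p under 0.05 and the median was 0.59, against 0.01, and DESeq2 called 2. Without the 5 animals the median was 0.35 and 0 were called. The smallest changes in PAB-H were those of *Cldn5* and *Emcn*, each 0.21. The count in PAB-H was 1 without Sham-H replicate 1 and 2 without Sham-H replicate 7. In AOB-H and AOB-F 0 were called by either tool, against 0 and 0.00837% of all genes, with 1 and 5 genes at an unadjusted p under 0.05 and medians of 0.04 and 0.18. Without the 5 animals the median in AOB-H was -0.17, with 28 of 31 genes below 0 in place of 14, and in AOB-F 1 gene was called, with a wider gap. The smallest changes were -0.02 for *Sox7* and 0.02 for *Aplnr* in AOB-H, and -0.03 for *Flt4* and *S1pr1* in AOB-F. PAB-F and AOB-F share their sham animals, as do PAB-H and AOB-H.

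A further 47 endothelial genes outside the list were examined as a second group. Of these 40 were found and tested, and in Sham-F 26 were lower and 3 higher in the RV, against 40 and 37.3% of all genes, with a median of -1.30. In Sham-H 25 were lower, against 14.8% of all genes, and 2 higher, with a median of -0.70. *Ramp2*, a partner of the adrenomedullin receptor, at -2.93 (SE 0.21), *Rgcc*, a regulator of the cell cycle found in capillaries, at -2.65 (SE 0.15), and *Aqp1*, a water channel, at -2.60 (SE 0.16), were the widest in Sham-F. The arterial genes were lower in the RV for 6 of 6 at both ages, and the capillary genes for 5 of 6. Of the venous and endocardial genes 2 of 7, *Nr2f2* at -1.44 and *Bmp6* at -1.71, were lower and 1 was higher in Sham-F, with a median of -0.22. The sublists were not tested against each other. *Vcam1*, an adhesion molecule of activated endothelium, was higher in the RV by 1.49 (SE 0.21) in Sham-H and 2.14 (SE 0.19) in Sham-F, and was higher in all 41 animals. *Prox1*, the master factor of lymphatic endothelium that cardiomyocytes also make, was higher by 0.39 and 0.89. The other 4 lymphatic genes had values below 0 in Sham-F, where *Ccl21* at -2.15, *Reln* at -1.16 and *Pdpn* at -0.72 were called lower and *Lyve1* at -0.42 was not called, for a median of -0.72 over the 5. *Bmx*, a tyrosine kinase, was higher by 1.10 (SE 0.34) in Sham-F. *Adgrl4*, *Calcrl*, *Cyyr1* and *Selp*, with 0.23, 0.16, 0.06 and 0.54, were the other genes above 0 there and were not called. In the RV of PAB-H 9 of the 40 and in PAB-F 11 of the 40 were higher than in sham, against 3.91 and 7.66% of all genes, with medians of 0.75 and 0.61, among them *Cd34* by 0.94 and 0.92 and *Podxl* by 0.97 and 0.70.

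**Figure D5:**
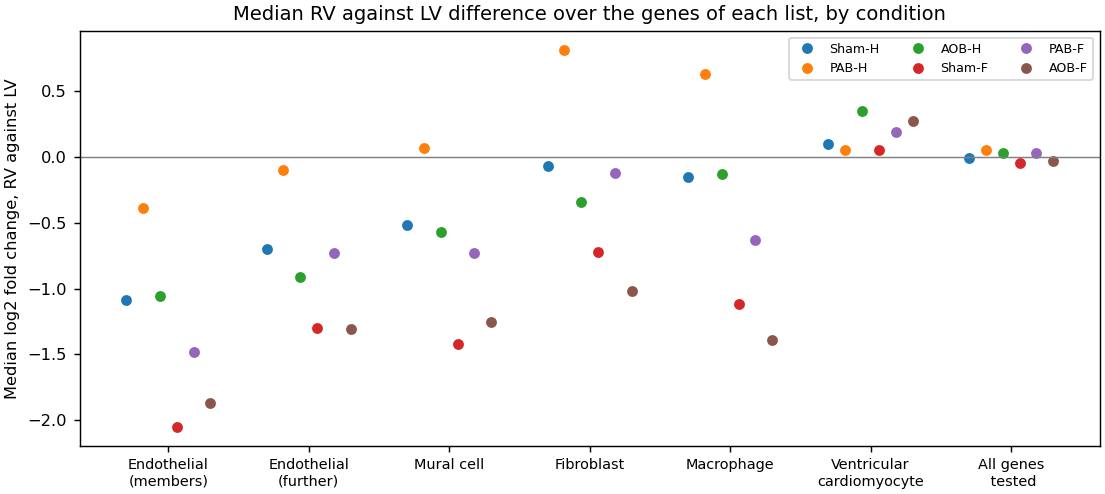
Median log2 fold change of RV against LV (y axis) over the tested genes of 6 lists and over all genes tested, with 1 point per condition. The endothelial list lies lowest of the plotted lists in 6 of 6 conditions, at -2.05 in Sham-F, all genes tested stay between -0.05 and 0.05, and the fibroblast and macrophage lists lie above 0 in PAB-H. Other lists are not part of this ranking. In Sham-F the platelet genes *Gp9* and *Pf4* stood at -2.17 and -2.18. The capillary genes *Car4*, *Rgcc*, *Fabp4* and *Aqp1* stood there at -2.18 to -2.65, with *Cav1* at -0.78 and *Kit* at -0.04. In Sham-H *Car4*, *Rgcc* and *Aqp1* stood at -1.56, -1.30 and -1.27, *Cav1* and *Fabp4* at -0.93 and -0.89 and *Kit* at -0.04. The endothelial list had a median of -1.09 in Sham-H.

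Markers of other cells moved with some of these results. In Sham-F, where 40% of all genes were called lower, 5 of 7 tested fibroblast markers, 5 of 8 macrophage markers and 4 of 7 mural cell markers were lower in the RV, 2 mural markers were higher, and the platelet genes *Gp9* and *Pf4* differed by -2.17 and -2.18, with *Col1a1* at -2.47, the complement genes *C1qa*, *C1qb* and *C1qc* at -2.36 to -2.64 and *Notch3* at -2.28. The summed share of the fibroblast list was 0.0149 to 0.0501% of counts in the RV and 0.0389 to 0.122% in the LV of Sham-F, that of the macrophage list 0.00138 to 0.0045% and 0.00429 to 0.017%, and that of the mural list 0.0992 to 0.13% and 0.125 to 0.191%. In Sham-H 0 of 7 fibroblast and 0 of 8 macrophage markers were called by edgeR, and 4 of 7 mural markers were lower and 1 higher, against 14.8% of all genes lower. Of 3 tested red blood cell genes *Hbb* and *Slc4a1* were lower by the same test in both sham groups, at -1.09 and -0.54 in Sham-H and -2.66 and -0.50 in Sham-F. Of 2 mesothelial genes *Wt1* was lower in both, at -0.78 and -1.36, and *Msln* in Sham-F, at -0.91. The summed shares in Sham-H were 0.0237 to 0.0455% and 0.0241 to 0.0804% for fibroblasts, and 0.00287 to 0.00607% and 0.0024 to 0.0126% for macrophages. The cardiomyocyte list went the other way in the sums, with 11.5 to 14.3% in the RV and 8.53 to 10.3% in the LV of Sham-F. By gene it was mixed, with *Myh6*, *Tnnt2*, *Ryr2* and *Atp2a2* higher in the RV of Sham-F by 0.88 to 1.15 and *Myl3* and *Tnni3* lower, at -0.97 and -0.35. Platelets also express *Pecam1*, *Vwf*, *Fli1* and *Tal1*, and several genes of the endothelial list are found in other blood cells. The part of the other cell types in the endothelial differences was not tested.

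In the RV of PAB-H all 7 tested fibroblast markers were higher than in sham, by 1.22 to 1.84, against 3.91% of all genes, with a summed share of 0.0351 to 0.294% against 0.0237 to 0.0455%. In PAB-F 3 of 7 fibroblast and 3 of 8 macrophage markers were higher, against 7.66% of all genes, with fibroblast sums of 0.0273 to 0.188% against 0.0149 to 0.0501% and macrophage sums of 0.00238 to 0.0171% against 0.00138 to 0.0045%. Their part in the higher endothelial values of the banded RV was not tested. Over 4 equal bins of gene length, from short to long, the medians of all genes in Sham-F were -0.23, -0.10, 0.00 and 0.15, and those of the endothelial genes in the same bins -1.47, -1.46, -2.06 and -2.19. The part of length in the differences was not tested beyond the length correction among the alternatives.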

How the data were processed

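RNA was measured in cardiomyocytes of both ventricles of 41 rats, 82 libraries in 12 groups. The authors used Trim Galore for trimming, STAR for alignment to the rat assembly Rnor6.0 and featureCounts for counting. They deposited raw counts, normalized counts and FPKM per library. The raw counts were used for all tests, and the deposited FPKM only to compare levels between genes. The deposited normalized counts (unit signal) were recomputed from the raw counts and differed by at most 5.3e-15 in relative terms. Columns with the authors' own comparisons (fold changes and p-values) were not used.

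The members and the other gene lists were chosen with earlier results of these data known. Total counts ranged from 6675287 to 19665439 (median 13074485.5), and lower totals give wider error in the rarer genes. Genes were filtered by group with filterByExpr and scaled by TMM in edgeR 4.0.16 (R 4.3.3). Quasi-likelihood tests used a term for each animal for RV against LV and for differences between conditions in that contrast, and 12 group means for banding and age. P-values were adjusted over 11954 genes by Benjamini and Hochberg. Normalized counts were scaled to 13279120, the mean effective library size. The SE was the log2 fold change divided by the root of F. Ventricles of 1 animal deviated together (median r 0.19 to 0.30, against -0.07 to -0.01 for different animals), and the animal numbers in the labels give the pairing.

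Named were the reference genes *Pecam1*, *Cdh5*, *Vwf*, *Kdr*, *Tek*, *Cldn5*, *Nos3* and *Erg*, for the contrasts of ventricles the 3 called genes with the largest and the 2 genes with the smallest change, for banding and age every called gene if 5 or fewer, otherwise the 3 largest, and with none called the 2 with the lowest p. The remaining members were named to complete their role, and members of other lists after their values were seen. Alternatives were other scalings, no filter, a length correction, DESeq2 1.42.0, no animal term, a block by replicate number, sex, each animal left out in turn and, added after seeing the data, leaving out 5 animals whose LV library lay more than 40 units from its group median on component 1. Data were simulated from the fitted model with 200 of 11954 genes changed by 1.5 on the log2 scale. These 200 were drawn from genes above a low mean level, and all others were given no difference in that contrast. In the data many more genes differed, so the recovery holds for that setting only. The tests recovered 198 for RV against LV in Sham-H and 200 for the RV of PAB-F, and called 4 and 15 others. Smaller changes, such as the medians of 0.64 and 0.57 in the RV of PAB-H and PAB-F, were not simulated.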

Additional observations from a re-analysis of the deposited data

Results flagged for a closer look

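In 28 of 114 groups of 4 to 10 values checked, the end value lay far from the rest by Dixon's criterion. The measures checked include the share of counts and the 8 reference genes, to which all flagged values belong. For a single check chance gives about 1 in 20. The share and the genes come from the same libraries, so the checks are not independent and the number flagged cannot be set against that rate. AOB-H replicate 6 accounts for most. In its RV the share was 0.444%, with 0.178% the next value, and normalized counts were 2198 for *Pecam1* (next 1027), 1945 for *Cdh5* (next 1037), 17083 for *Vwf* (next 3444), 2201 for *Tek* (next 890), 2238 for *Nos3* (next 1130) and 385 for *Erg* (next 196). In its LV the share was 1.09% (next 0.378%), with 4940 for *Pecam1* (next 2216), 5393 for *Cdh5* (next 2422), 15762 for *Vwf* (next 4178), 11036 for *Kdr* (next 6065), 5044 for *Tek* (next 1724), 5656 for *Nos3* (next 2408) and 786 for *Erg* (next 349).

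The LV of PAB-H replicate 2 had a share of 0.641% (next 0.372%), with 1415 counts for *Cldn5* (next 728) and 4303 for *Nos3* (next 2104). Sham-H replicate 4 had 12696 counts for *Vwf* in the LV (next 6670) and 1143 for *Cdh5* in the RV (next 987). The LV of Sham-F replicate 3 was highest with 4793 for *Pecam1* (next 2457), 8564 for *Kdr* (next 4347), 3206 for *Tek* (next 1165) and 818 for *Erg* (next 451), and it is not among the 5 animals that stood apart. In PAB-F the LV of replicate 5 was lowest, with a share of 0.341% (next 0.7%) and 509 counts for *Cldn5* (next 1418). *Kdr* was highest at 5253 in the RV of PAB-F replicate 6 (next 4001) and at 5631 in the LV of PAB-F replicate 3 (next 3997).

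The difference between RV and LV itself differed between Sham-F and Sham-H for 22 of the 31 genes, and between PAB-F and Sham-F for 6, each by edgeR's test of the difference.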

How the results depend on the processing

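Over all alternatives 187 of 214 counts of called genes stayed within 1.5 times the reported one and 27 moved. Of 1229 values of single genes 1110 kept their direction and side of the threshold, 87 lost the call, 5 gained it and 27 turned direction. Without the 5 animals, genes with at least a 2-fold difference fell from 16 to 5 in Sham-H and from 23 to 15 in AOB-H, and called genes numbered 0 in the RV of PAB-H, 16 (all higher) in the RV of PAB-F and 7 (5 higher, 2 lower) in the LV of AOB-F. For the changed gap they numbered 2 in PAB-F, both smaller gaps, and 1 in AOB-F, a wider gap. With no replicate block (no animal term) 0 genes were called between the ventricles of PAB-H and 0 for the changed gap in PAB-F. Total counts gave 1 between the ventricles of PAB-H, 12 in the RV of PAB-H and 1 in the LV of AOB-F. DESeq2 gave 2 and 10 for the changed gap in PAB-H and PAB-F. For the RV of PAB-H, DESeq2's size factors gave 3, and no filter on low counts, the length correction and sex as a covariate gave 1 each, as sex did in the LV of AOB-F. At least 2-fold genes in PAB-H were 1 with DESeq2's size factors, no filter, the length correction, DESeq2 or without the 5 animals. The replicate block by number gave 17 in the RV of PAB-H, 13 in the RV of PAB-F and 0 in the LV of AOB-F; numbers do not pair animals across conditions, since in 0 of 10 comparisons did all numbers correlate over 0.1 and 9 of 64 libraries matched their own number best.

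Leaving out 1 animal gave 25 to 29 called genes in Sham-H, 1 to 2 in PAB-H, 27 in AOB-H, 29 to 30 in Sham-F, 26 to 28 in PAB-F and 29 to 30 in AOB-F, and 13 to 20, 0 to 1, 15 to 23, 27 to 28, 20 to 23 and 26 to 29 at 2-fold. The changed gap gave 22 to 24 (14 to 20 at 2-fold) for Sham-F, 0 to 2 for PAB-H, 0 to 15 for PAB-F and 0 for AOB-H and AOB-F. Banding gave 0 to 14 in the RV of PAB-H, 2 to 9 in the RV of PAB-F and 0 to 6 in the LV of AOB-F, and age 18 to 24 in the LV (7 to 19 at 2-fold).

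Values near 0 turned direction. In the changed gap, *Cldn5* in PAB-H was -0.05 without the 5 animals, *Sox7* in AOB-H was 0.06 with the length correction and 0.03 with no replicate block, *Aplnr* in AOB-H was -0.02 with total counts and -0.29 without the 5 animals, and *Flt4* and *S1pr1* in AOB-F were 0.05 and 0.00 with the length correction. *Eng* in the RV of AOB-H was -0.05 without the 5 animals. Leaving out 1 animal gave -0.11 to 0.43 for *Emcn* in PAB-H, -0.17 to 0.12 for *Sox7* and -0.13 to 0.18 for *Aplnr* in AOB-H, -0.27 to 0.03 for *Cldn5* in PAB-F, -0.19 to 0.05 for *Flt4* and -0.20 to 0.06 for *S1pr1* in AOB-F, all for the changed gap, and -0.05 to 0.50 for *Eng* in the RV of AOB-H. The cause of these changes was not tested.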
